A study of Mus musculus with 18 samples.

Results

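Peaks of open chromatin that lie in exons or in the 3' untranslated region (3' UTR) of genes were compared between murine peripheral T-cell lymphomas (mPTCL) and normal NK, NKT and T cells of the mouse. The members are the peaks with a deposited class of exonic or 3' UTR on chromosomes 1, 2, 6, 7, 8, 9, 12, 14, 17, 18 and 19. There are 2774 of them among the 30548 peaks that the larger deposited table holds on these chromosomes, 1895 exonic and 879 in 3' UTRs. Each peak is 500 bp long. The same 11 chromosomes hold 10648 promoter peaks and 9473 intronic peaks, which serve as the comparison. The design asks how the open chromatin of the lymphomas differs from that of each normal lymphocyte, and here in addition whether a peak inside a gene moves with the promoter of that gene.

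ATAC-seq was carried out on 18 libraries. The 9 mPTCL libraries carry the strain label C57BL/6 and the genotype p53KO. They are sorted liver cells of lymphomas that grew after p53KO T cells were placed in syngeneic C57BL/6 hosts with the CD3KO genotype, and no sort marker is given for them. The 3 NK libraries are WT spleen cells sorted as CD27- CD11b+. The 3 NKT libraries are WT liver cells sorted as CD3+ and positive for a CD1d tetramer loaded with alpha Gal Cer, although their titles carry the letters Sp. The 3 T libraries are WT spleen cells sorted as CD3+ thy1+. Each library was made from 10000 cells. Genotype, sort gate and, against NK and T cells, tissue differ together between the lymphomas and the normal cells, so their parts in a difference cannot be told apart. Nothing in the labels ties the libraries of a normal group to different mice, and p-values therefore reflect only how these libraries vary, which may be technical.

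In ATAC-seq the Tn5 transposase cuts DNA that nucleosomes leave free and inserts sequencing adapters there. Promoters of active genes are open in most cells, whereas open sites inside genes are often enhancers, start sites of other transcripts, or sites that are open in few cell types. An exon or a 3' UTR can therefore hold a regulatory site as well as coding or untranslated sequence, and the class of a peak says where it lies and not what it does. p53, the factor the lymphomas lack, is a transcription factor that switches on genes of cell-cycle arrest and cell death.

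Among members that could be placed within a RefSeq gene, the exonic peaks lay along the whole gene and the 3' UTR peaks near its end. These were 1219 of the 1895 exonic and 576 of the 879 3' UTR peaks. Taking the position of a peak centre as a percentage of the way through its gene, their median was 53.4% for exonic peaks and 90.4% for 3' UTR peaks. Of the exonic peaks, 14.2% lay within 1 kb of an annotated start site, compared with 4.56% of the 3' UTR peaks, 5.82% of intronic peaks and 69.0% of promoter peaks. Most members stood alone, since 1778 of the 2193 gene names with a member had 1 and 415 had more. A gene with several members contributes peaks that share its locus. A promoter peak of the same gene that did not overlap the member was found for 2011 members, which carry 1545 gene names.

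The sequences that bear on the results are those of the promoters set beside the members. They are shown to identify the start sites used below, for 6 genes whose member and promoter moved by different amounts and for Cdkn1b, where that difference was not called. The stretches are from RefSeq (GRCm38.p6, the assembly named mm10 by the files), on the strand of the gene and written 5' to 3', each inside a promoter peak and upstream of an annotated start. Capitals mark the motif, on either strand. The motifs shown are the GC box GGGCGG bound by Sp1-type factors, the CCAAT box bound by NF-Y, and the AP-1 site TGANTCA bound by Fos and Jun dimers, where N is any base. An ETS motif (CCGGAAG), a RUNX motif (TGTGGTT) and a cyclic AMP response element (TGACGTCA) were searched as well and are not shown.
Arpc2 GC box, chr1:74236344-74236373, plus strand: tcaggaggagcgGGGCGGcgtgtggcgcat
Zeb2 AP-1 site, chr2:45110449-45110478, minus strand: tccgcctagcctTGAGTCAagcagtcttac
Atic CCAAT box, chr1:71556919-71556948, plus strand: tcgctagtttcccCCAATcagtgctccagc
Atic GC box, chr1:71557069-71557098, plus strand: cggagttagcagCCGCCCcgcccagcggcg
Sgms1 CCAAT box, chr19:32211074-32211103, minus strand: agtgaaggcgcttATTGGttaggcttgcgc
Sgms1 AP-1 site, chr19:32211050-32211079, minus strand: ttgcgcggggccTGACTCActtcattagct
Rsu1 CCAAT box, chr2:13271520-13271549, minus strand: gcacttgctgagtCCAATtcaagttccaaa
Traf3ip3 CCAAT box, chr1:193201597-193201626, minus strand: gccagagagcagaCCAATcaggtagttgga
Cdkn1b GC box, chr6:134920328-134920357, plus strand: gctcgccagcctGGGCGGagcggctcccgg

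The motifs differed in how often they occur at promoters. The GC box was found in 69.1% of the 6032 windows of 300 bases around starts in promoter peaks and in 35.2% of all 18158 such windows of the 11 chromosomes. The CCAAT box was found in 39% and 37.7% of them, and the AP-1 site in 4.49% and 8.01%. The ETS motif was found in 20.7% and 8.87%, the RUNX motif in 3.53% and 5.35% and the cyclic AMP response element in 3.70% and 1.84%. Among the 2691 members on chromosomes with start windows, 29 held an annotated start, with 32 windows. Of these windows, 25% held a GC box, 37.5% a CCAAT box and 6.25% an AP-1 site. Starts without a window are not counted. A match is a description of the letters and not evidence that a factor binds.

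Depth differed between groups. Total counts in peaks ran from 670358 to 4844441 in mPTCL, 417107 to 596601 in NK, 1433904 to 9097014 in NKT and 979441 to 2358023 in T libraries. The share of members with no count was 0.036% to 10.9% in mPTCL, 13.2% to 26.2% in NK, 0.288% to 14.1% in NKT and 1.80% to 10.0% in T libraries, so low values were least certain in NK cells. Summed over all peaks of 6 T-cell marker genes (Cd3e, Cd3d, Cd3g, Lck, Cd5, Cd6), counts scaled by effective library size (CPM) ran from 241 to 393 in mPTCL, 158 to 230 in NK, 758 to 813 in NKT and 494 to 640 in T libraries. Among the normal groups they were highest in NKT and lowest in NK cells. NK-cell markers ran from 133 to 213 CPM in mPTCL, 157 to 199 in NK, 45.6 to 73.8 in NKT and 62.8 to 105 in T libraries. The Trp53 gene, which encodes p53, has 3 peaks on chromosome 11, and their sum was 51.0 to 117 CPM in mPTCL, 20.6 to 58.0 in NK, 42.4 to 60.0 in NKT and 58.8 to 80.8 in T libraries. Since the deleted stretch is not described, these peaks do not check the genotype. In such bulk samples, fewer cells with an open site and a less open site in every cell cannot be told apart.

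Members took a small share of all counts in every group, and a larger one in the lymphomas once the chromosomes were matched. They held a median of 3.12% of all peak counts in mPTCL (2.75% to 3.48%), 3.10% in NK (3.04% to 3.25%), 2.92% in NKT (2.75% to 2.93%) and 2.83% in T libraries (2.79% to 2.89%). Of the counts on the 11 chromosomes, they held 6.62% in mPTCL (5.73% to 6.95%), 5.60% in NK (5.53% to 5.95%), 5.24% in NKT (4.93% to 5.24%) and 5.16% in T libraries (5.07% to 5.23%). By this second measure, all 9 lymphomas lay above all NKT and T libraries and overlapped the NK libraries. The 11 chromosomes together held 44.2% to 52.0% of counts in mPTCL, 54.7% to 55.3% in NK, 55.7% to 55.8% in NKT and 54.9% to 55.2% in T libraries, which is why the 2 measures differ.

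**Figure D1:**
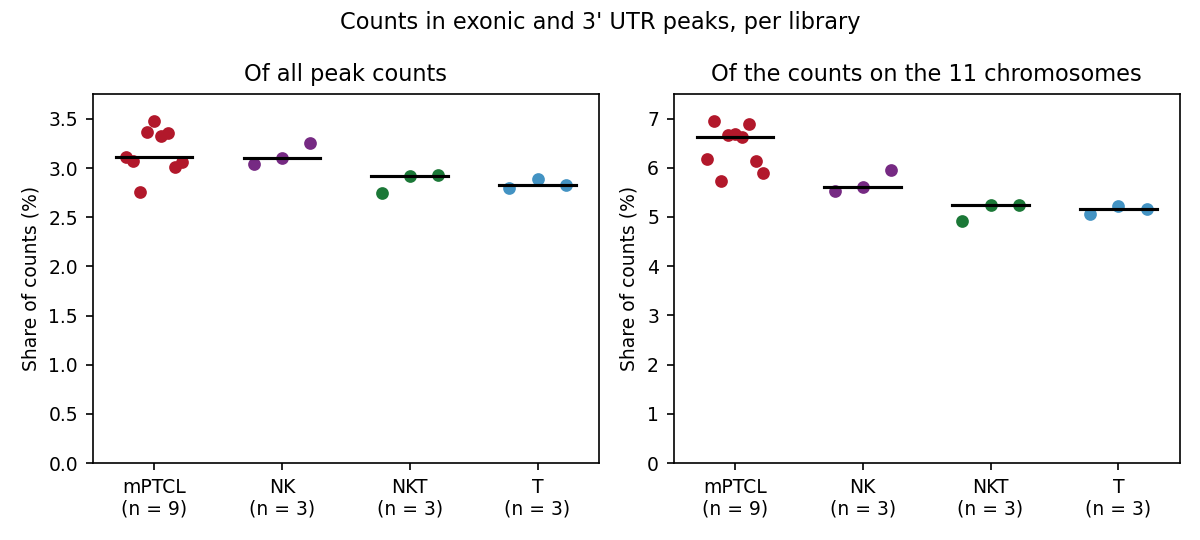
Share of counts (%) in exonic and 3' UTR peaks, per library, of all peak counts (left) and of the counts on the 11 chromosomes (right). Each point is 1 library and the bar is the median of its group (n = 9 for mPTCL, n = 3 for the others). On the right all mPTCL libraries (5.73% to 6.95%) sit above the NKT and T libraries.

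Typical members were weaker than promoter peaks and near the level of intronic peaks. The median exonic member had a mean log2 CPM of 3.09 in mPTCL, 2.61 in NK, 2.91 in NKT and 3.03 in T cells, and the median 3' UTR member had 3.08, 2.49, 2.75 and 2.92 in the same order. The median intronic peak had 2.94, 2.51, 2.83 and 2.92, and the median promoter peak 4.11, 3.92, 4.69 and 4.46. All peaks were then cut into 10 equal classes by mean level. Of the members tested, 54.7% (1518) fell in the lower 5 classes, near the share of all peaks that these hold by construction. By contrast, 77.7% of promoter peaks fell in the upper 5. Only 222 of the 2011 members with a promoter peak had a higher mean level than the summed promoter peaks of their gene. Across members, Spearman's coefficient between the level of the member and that of the summed promoter peaks was 0.077, a description over peaks of the same libraries.

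The 5 strongest members were Angptl6, 1810019N24Rik, Clec11a, Opa3 and Ppp2r3d. Angptl6, which encodes an angiopoietin-like secreted protein, had 48.5, 85.2 and 117 CPM in the lowest, median and highest lymphoma, against 126, 138 and 171 CPM in NK, 131, 100 and 96.1 in NKT and 116, 106 and 129 in T libraries. All lymphomas were below all NK libraries at that peak and overlapped the NKT and T libraries. The exonic peak of 1810019N24Rik had 49.8, 64.7 and 78.9 CPM in the lymphomas (lowest, median, highest), against 112, 55.0 and 143 in NK, 191, 159 and 149 in NKT and 105, 116 and 115 in T libraries. All lymphomas were below all NKT and T libraries at that peak, and the log2 fold change against NKT cells was -1.35 ± 0.20 (standard error, SE, here and below) with an adjusted p of 6.18e-06 by edgeR's quasi-likelihood test. Its promoter fell by the same amount, -1.36. Opa3, a gene for a mitochondrial protein, had 47.8, 66.6 and 95.5 CPM in the lymphomas, against 124, 65.6 and 74.5 in NK, 127, 133 and 116 in NKT and 83.1, 123 and 137 in T libraries. It was lower in mPTCL than in NKT cells by -0.83 ± 0.22 (adjusted p = 0.00308), and its promoter by -1.0. For Ppp2r3d, a regulatory subunit of protein phosphatase 2A, the member did not pass the test against NKT cells (-0.44, adjusted p = 0.148), whereas its promoter fell (-1.21, adjusted p = 8.73e-05).

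Against NKT cells, more members were called higher than lower in the lymphomas, while promoter peaks were mostly lower. The balance of members turned under other settings given below, and that of promoter peaks narrowed under other scalings. Of the 2773 members that passed the filter on low counts, 578 were higher and 389 lower in mPTCL at an adjusted p below 0.05 over all peaks. That is 20.8% and 14%, beside 23.2% higher and 19.4% lower among all 61220 peaks tested, so neither share was above that background. Among the 30546 peaks tested on the 11 chromosomes, 16.5% were higher and 24.5% lower. The higher share of members was above this matched background and the lower share below it. The median log2 fold change was 0.43 over members, 0.27 over all peaks and -0.05 over all peaks of the 11 chromosomes. Exonic members (388 higher, 278 lower of 1895) and 3' UTR members (190 higher, 111 lower of 878) had similar shares. Intronic peaks gave 1878 higher and 1952 lower calls of 9472. Promoter peaks gave 924 higher and 3945 lower calls of 10648, with a median of -0.51.

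How many members count as higher depended on the scaling, on the peak table and on 1 library. With RLE size factors the calls were 983 higher and 198 lower, with library totals 883 and 235, with TMM computed on the 11 chromosomes alone 794 and 267, and with cyclic loess, which removes any trend with level, 100 and 172. The median of all peaks moved with them, at 0.74, 0.64, 0.55 and -0.03 against 0.27 as reported. DESeq2 gave 1197 higher and 225 lower. The smaller deposited table gave 54 higher and 105 lower, and the fit without NKT replicate 2 gave 216 and 246. Promoter peaks gave 1606 higher and 1627 lower calls with RLE size factors and 1436 and 2055 with library totals. They gave 1266 and 2548 with TMM on the 11 chromosomes and 360 and 495 with cyclic loess. Under cyclic loess the median was -0.11 for members and -0.12 for promoters, so the gap between these classes was not seen under that scaling. The change also followed the level of a peak. In the weakest of the 10 level classes the median log2 fold change against NKT cells was 2.57 for members, 2.79 for all peaks and 2.58 for promoters, and in the strongest it was -0.99, -0.79 and -0.86. At a given level members were never further than 0.22 from all peaks. The part of level in the counts of calls was not tested beyond these values.

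Against T cells, 169 members were higher and 208 lower in mPTCL, 6.09% and 7.5%, beside 8.27% and 11.4% of all peaks. Of all peaks on the 11 chromosomes, 6.45% were higher and 14.2% lower. Members had a median of 0.26, as did all peaks of the genome, while all peaks of the 11 chromosomes had 0.04. Promoters gave 352 higher and 2274 lower calls with a median of -0.33. They gave 588 and 1328 with RLE size factors and 254 and 715 with cyclic loess. RLE size factors turned the balance of members to 277 higher and 130 lower, library totals to 249 and 152 and TMM on the 11 chromosomes to 253 and 145, while cyclic loess gave 96 and 175. DESeq2 gave 467 and 174, members with a mean of at least 20 counts 142 and 103, and the smaller table gave 8 and 82. The balance also turned without mPTCL replicate 2 (198 and 184), 8 (237 and 187) or 9 (215 and 179) and without T replicate 2 (106 and 96). Against NK cells, 119 members were higher and 76 lower, 4.29% and 2.74%, beside 6.02% and 3.77% of all peaks, with a median of 0.25. Of all peaks on the 11 chromosomes, 3.87% were higher and 4.52% lower. With RLE size factors the counts of members were 112 and 83, with a mean of at least 20 counts 84 and 86, and with the smaller table instead 13 and 66. The 3 comparisons share the lymphoma libraries.

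**Figure D2:**
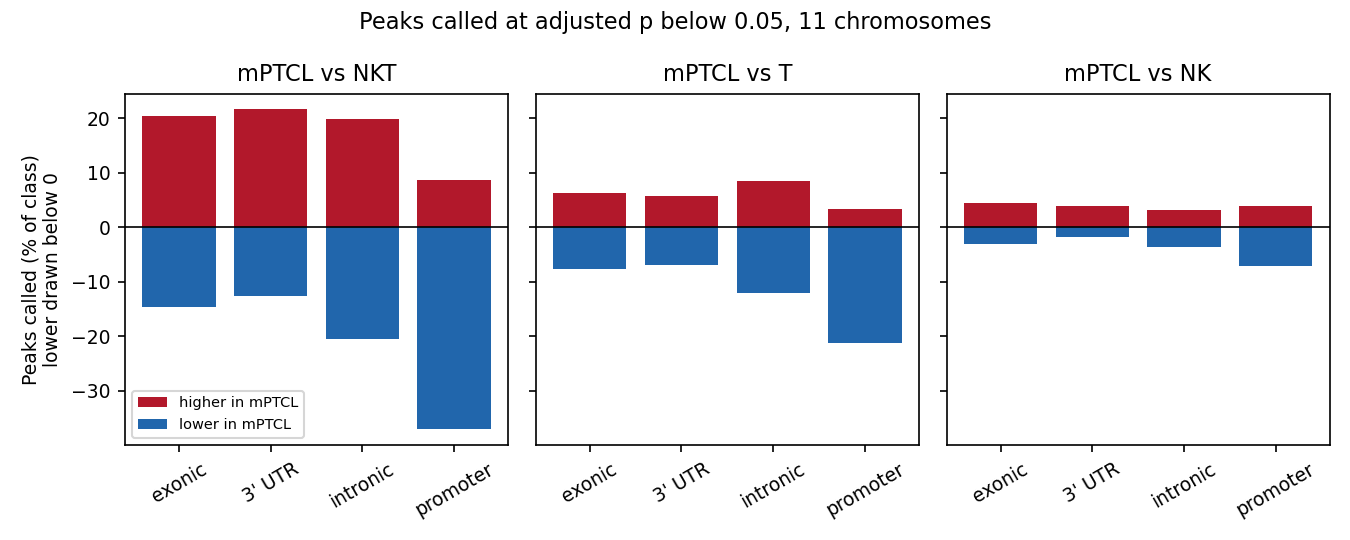
Share of peaks (%) called at an adjusted p below 0.05 in mPTCL against NKT, T and NK cells, by class of peak on the 11 chromosomes; bars above 0 are higher and bars below 0 lower in mPTCL. Exonic and 3' UTR peaks have more higher than lower calls against NKT and NK cells, and promoter peaks more lower than higher calls in all 3 comparisons, with the scaling as reported and the larger table.

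Members and promoters of the same gene were then compared within each library, which removes a scaling factor shared by the whole library. Under RLE size factors 591 differences were called against NKT cells, beside 592 as reported. The comparison does not remove a change that follows the level of a peak, and only 222 of the 2011 members were above their promoter peaks in level. The part of level in these differences was not tested. Of the 2011 members with a promoter peak, 478 changed upward relative to their promoter in mPTCL against NKT cells and 114 downward, 23.8% and 5.67%, beside 26.6% and 6.32% among all 24956 non-promoter peaks with a promoter. The median difference was 0.53 for members and 0.62 for all such peaks, and the shares called in members were not above this background. Among members with a mean of at least 20 counts the split was 161 upward and 108 downward. By class, 286 exonic members moved upward and 72 downward of 1306, and 192 and 42 of 705 in 3' UTRs.

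Against NKT cells, a lower promoter was more frequent among lower members than over all promoter sets. A higher promoter was likewise more frequent among higher members. Of the 307 members that were lower, 200 had promoter peaks that were also called lower, 100 had promoter peaks that were not called and 7 had promoter peaks called higher. Of the 372 higher members, 89 had a higher promoter, 78 a lower one and 205 one that was not called. Over all 8321 distinct sets of promoter peaks, 11.8% were called higher and 39.4% lower. Beside this, 23.9% of the higher members had a higher promoter and 65.1% of the lower members a lower one. Promoter calls moved with the scaling, as given above, and these are as reported. Against T cells, 78 of the 162 lower members had a lower promoter and 84 one that was not called, while the 123 higher members had 19 higher and 14 lower promoters, beside 7.62% higher and 25.8% lower among all promoter sets. The member was above its promoter's change in 131 cases and below it in 51 against T cells, beside 7.49% and 3.33% of all non-promoter peaks, and in 13 and 11 cases against NK cells, beside 0.577% and 0.441%. With limma on log2 ratios the split against NK cells was 42 and 73.

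The changes of member and promoter were more closely related for members near their promoter. For the 551 members within 2 kb of the strongest promoter peak, Spearman's coefficient between the log2 fold changes of member and promoter against NKT cells was 0.56, and the median changes were -0.11 for the member and -0.58 for the promoter. The coefficient was 0.40 at 2 to 10 kb (466 members), 0.31 at 10 to 50 kb (638 members) and 0.29 beyond 50 kb (356 members), where the medians were 0.54 and -0.44. Over all 2011 members the coefficient was 0.39 against NKT, 0.34 against T and 0.28 against NK cells, and over 7912 intronic peaks it was 0.34, 0.32 and 0.26. These are descriptions over peaks that share libraries and, within a gene, the promoter.

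**Figure D3:**
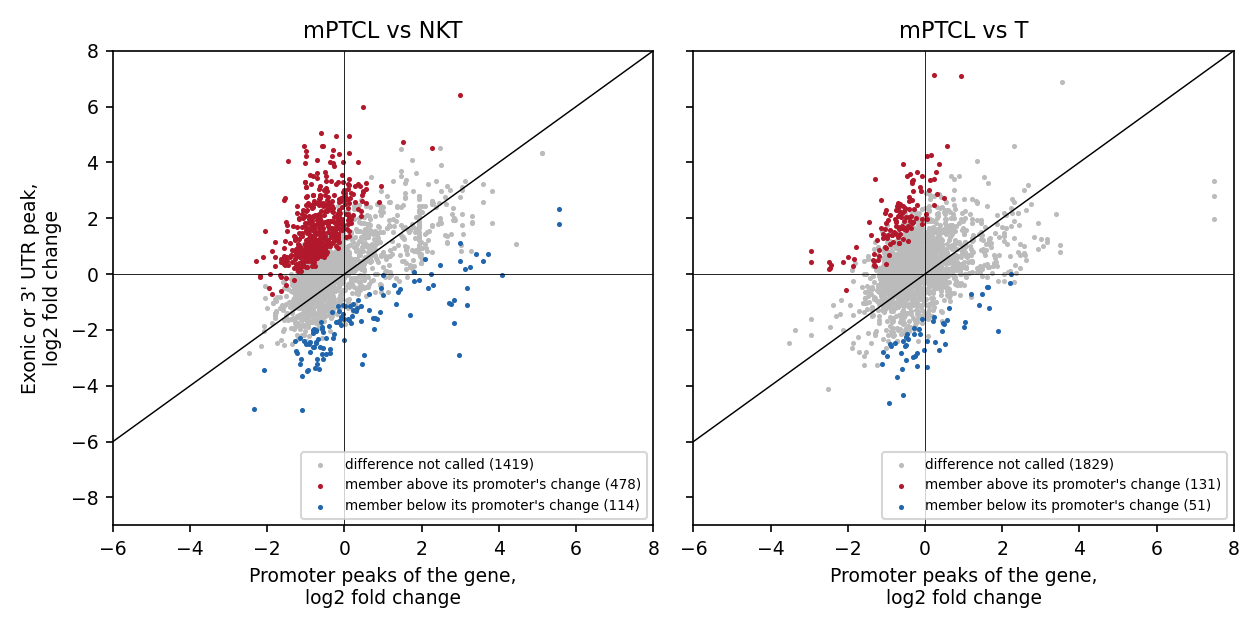
Log2 fold change of each exonic or 3' UTR peak (vertical) against that of the promoter peaks of its gene (horizontal), for mPTCL against NKT cells (left) and against T cells (right). Each point is 1 of 2011 peaks, the diagonal marks equal change, and colour marks the peaks whose difference from the promoter was called (478 above and 114 below on the left, 131 above and 51 below on the right).

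In several genes the member and the promoter moved in opposite directions against NKT cells. Sgms1, which encodes a sphingomyelin synthase, had 1.27, 5.39 and 20.9 CPM in its exonic peak in the lowest, median and highest lymphoma, against 0, 0 and 0.822 CPM in NKT cells. Its promoter peaks summed to 14, 33.8 and 82.2 CPM in the lymphomas, against 96.9, 133 and 108 CPM in NKT cells. Neither pair of groups overlapped, and the member rose by 4.04 ± 1.10 (adjusted p = 0.00474) while the promoter fell (-1.46), a difference of 5.35 ± 0.84 (adjusted p = 6.99e-05). The CCAAT box and AP-1 site printed above are from 1 of the 4 promoter peaks of this gene, which is not the strongest of them.

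Ethe1, the gene of a mitochondrial sulfur dioxygenase, showed the reverse. Its exonic peak had 3.71, 6.98 and 12.6 CPM in the lymphomas, against 56.9, 59.0 and 48.6 CPM in NKT and 36.2, 32.9 and 23.4 CPM in T cells. Its promoter had 2.33, 5.60 and 16.4 CPM in the lymphomas, against 0, 1.06 and 1.37 CPM in NKT cells. All lymphomas were below all NKT and T libraries in the exon and above all NKT libraries at the promoter, with log2 fold changes of -2.90 ± 0.31 (adjusted p = 5.54e-08) and 2.96 and a difference of -5.73 ± 0.72 (adjusted p = 1.06e-05). Crispld2 gave a difference of -4.90 ± 0.81 (adjusted p = 0.000113), with 3.19, 8.07 and 30.7 CPM in its 3' UTR peak in the lymphomas against 35.2, 36.4 and 29.4 CPM in NKT cells, so that the groups overlapped. Slc15a1, which encodes a peptide transporter, gave -4.23 ± 0.71 (adjusted p = 0.000123) with 6.76, 12.6 and 41.8 CPM in the exonic peak in the lymphomas against 27.2, 35.5 and 40.7 CPM in NKT cells. At both genes the promoter rose (2.85 and 3.17), from peaks that held at most 4.52 and 0.822 CPM in NKT libraries.

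Zeb2, which encodes a zinc-finger repressor active in effector lymphocytes, changed in the exon and not detectably at the promoter. Its exonic peak (chr2:45017205-45017705, positions as deposited on mm10 here and below) lay 92349 bp from the strongest promoter peak. It had 4.02, 6.54 and 15.7 CPM in the lymphomas, against 12.4, 4.23 and 6.34 in NK, 48.8, 66.1 and 62.5 in NKT and 16, 6.92 and 8.41 CPM in T libraries. NKT cells stood alone at this site, and the 3 other groups overlapped. The member fell by 2.91 ± 0.34 on the log2 scale against NKT cells (adjusted p = 2.25e-07), the promoter, which carries the AP-1 site printed above, did not pass the test (0.52, adjusted p = 0.134), and the difference was -3.44 ± 0.51 (adjusted p = 4.51e-05).

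Against T cells, Atic and Traf3ip3 were among the members furthest from their promoter's change. Atic, which encodes the enzyme of the last steps of purine synthesis, had 3.98, 10.2 and 19.5 CPM in its exonic peak in the lymphomas, against 2.13, 0 and 0.934 CPM in T cells, and the promoter had 31.9, 43.2 and 73.8 CPM against 105, 140 and 99.5 CPM. The exon rose by 3.39 ± 0.75 (adjusted p = 0.00167) while the promoter fell (-1.30), a difference of 4.64 ± 0.70 (adjusted p = 0.000273). The 3' UTR peak of Traf3ip3, whose protein binds the signalling adaptor TRAF3, had 0, 1.53 and 3.74 CPM in the lymphomas, against 17, 7.78 and 22.4 CPM in T cells. It fell by 3.32 ± 0.57 on the log2 scale (adjusted p = 9.91e-05), with the promoter at 0.05 and a difference of -3.40 ± 0.59 (adjusted p = 0.000945).

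By the naming rule, which asks for a mean of at least 10 counts per library, the largest gains against NKT cells were at sites that NKT cells nearly lacked. Tmtc1, whose protein sits in the endoplasmic reticulum, had 8.56, 19.8 and 57.0 CPM in its exonic peak (chr6:148294634-148295134) in the lymphomas, against 12.4, 55.0 and 88.7 in NK, 0, 0 and 0.548 in NKT and 2.13, 3.46 and 2.80 CPM in T libraries. The lymphomas were above all NKT and T libraries and overlapped the NK libraries, with log2 fold changes of 6.42 ± 0.82 against NKT cells (adjusted p = 7.46e-07) and 3.19 ± 0.67 against T cells (adjusted p = 0.000996). The Tmtc1 promoter rose less against NKT cells (3.01), and the difference was 3.49 ± 0.98 (adjusted p = 0.00818). Farp1, a gene for a guanine nucleotide exchange factor, had 280 counts in its exonic peak in the lymphomas and 2 in NKT cells, a ratio of 84.1 with a 95% counting interval of 23.1 to 698. Sin3b, which encodes a scaffold of histone deacetylase complexes, had 217 counts in its 3' UTR peak in the lymphomas and 3 in NKT cells, a ratio of 43.5 (14.7 to 212), although 1 or more lymphomas had no count there. Catsperd, a subunit gene of the sperm calcium channel, gave 4.95 ± 1.0 (adjusted p = 0.000308) and Serac1, a gene of phospholipid remodelling, 4.93 ± 0.99 (adjusted p = 0.000277). The promoters of these 4 genes did not pass the test (adjusted p = 0.0763 to 0.704), and the calls of the 4 members were lost under cyclic loess, whereas that of Tmtc1 held in all 21 alternatives.

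The largest losses against NKT cells were at sites open in NKT cells. Arpc2, a subunit gene of the Arp2/3 complex that nucleates actin, had 0, 1.56 and 5.57 CPM in its exonic peak (chr1:74262558-74263058) in the lymphomas, against 12.4, 4.23 and 3.17 in NK, 49.6, 75.7 and 64.9 in NKT and 8.52, 5.19 and 18.7 CPM in T libraries. All lymphomas were below all NKT libraries, and they overlapped the NK and T libraries. The member fell by 4.88 ± 0.44 on the log2 scale (adjusted p = 1.95e-09), its promoter, with the GC box printed above, by 1.10, and the difference was -3.84 ± 0.62 (adjusted p = 8.91e-05). Dpp4, which encodes the T-cell surface peptidase CD26, had 0, 0 and 4.77 CPM in its exonic peak (chr2:62352004-62352504) in the lymphomas, against 14.5, 4.23 and 9.51 in NK, 27.2, 41.8 and 37.1 in NKT and 19.2, 20.8 and 26.2 CPM in T libraries. It was lower than in NKT cells by -4.82 ± 0.56 (adjusted p = 1.83e-07) and lower than in T cells by -4.13 ± 0.59 (adjusted p = 8.70e-06), without overlap, and its promoter fell too (-2.35 and -2.52). Gm39041 (-3.81 ± 0.52, adjusted p = 1.83e-06), C430002N11Rik (-3.64 ± 0.48, adjusted p = 1.19e-06) and Gm48673 (-3.54 ± 0.51, adjusted p = 4.94e-06) followed, and at each of them all lymphomas lay below all NKT libraries.

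**Figure D4:**
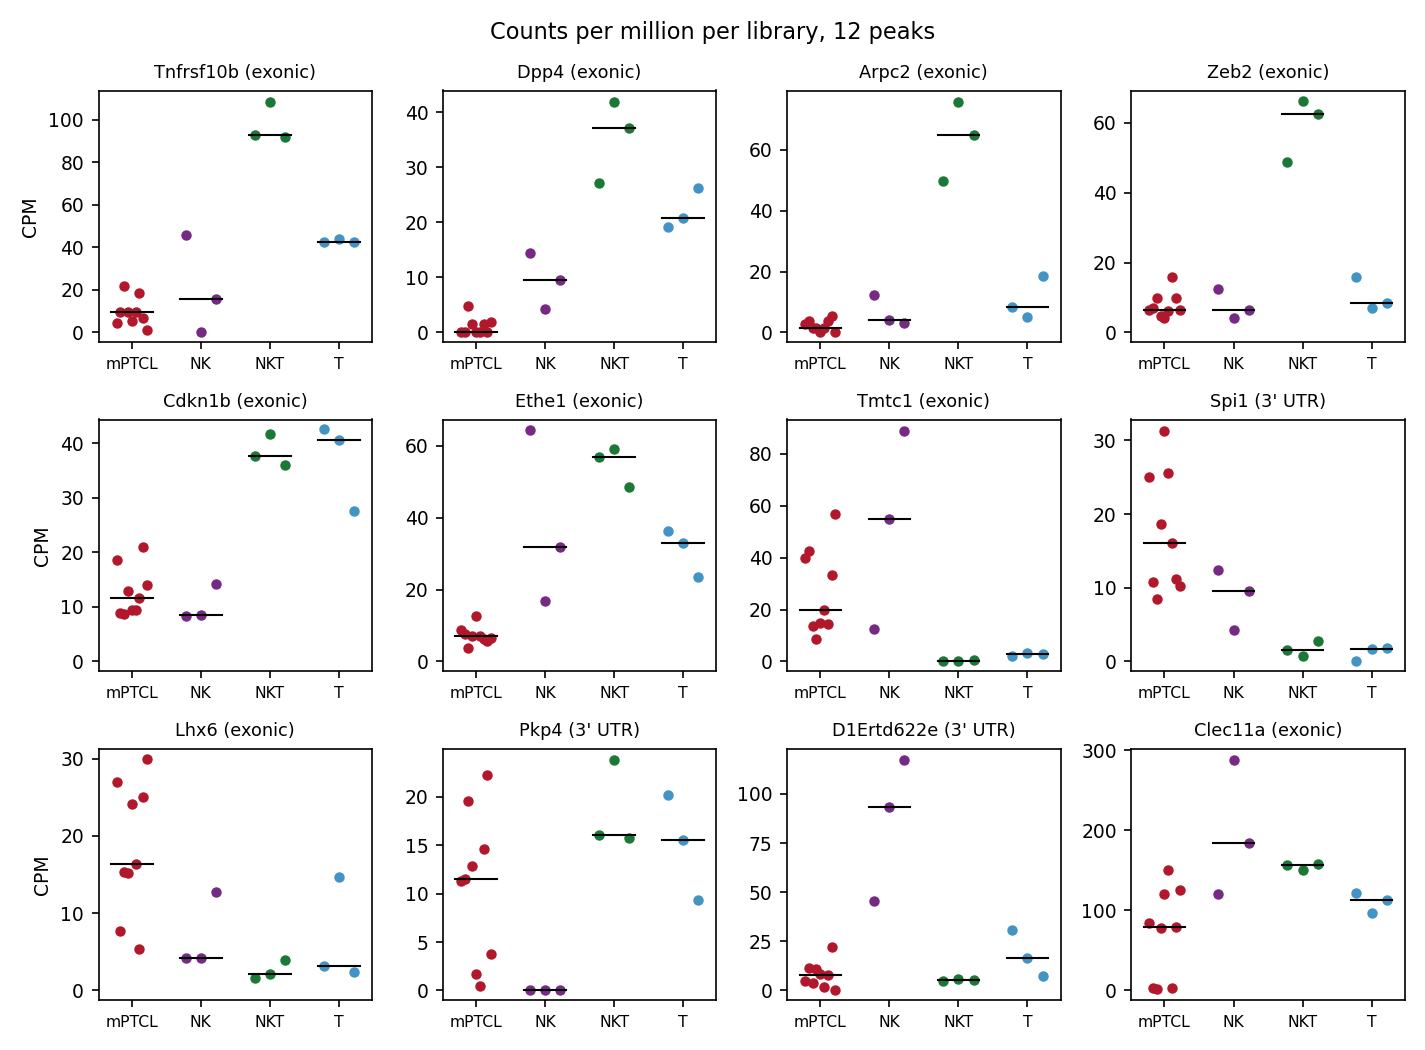
CPM of 12 peaks in every library, with the class of the peak in each title; each point is 1 library and the bar is the median of its group (mPTCL n = 9, NK, NKT and T n = 3 each). Arpc2 and Dpp4 are at most 5.57 and 4.77 CPM in mPTCL, against at least 49.6 and 27.2 CPM in NKT cells, and Pkp4 has no count in any NK library.

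Against T cells, the members with the largest gains were at sites where T cells had few or no counts. BC004004 had 143 counts in its exonic peak in the lymphomas and 0 in T cells, at least 8.01-fold higher when T cells are given 3 counts over the group. Haao, an enzyme gene of the pathway from tryptophan to NAD, had 167 and 0 counts in its 3' UTR peak, at least 9.35-fold higher. Gipr, the receptor gene for an incretin hormone, had 157 counts against 1, a ratio of 26.4 (4.67 to 1049), and Ltbp3, which encodes a binding protein of latent TGF-beta, 175 against 1, a ratio of 29.4 (5.21 to 1168). Lemd2, a gene for a protein of the inner nuclear membrane, had 286 counts in its 3' UTR peak against 2, a ratio of 24.0 (6.59 to 199). At these 5 genes no lymphoma overlapped the T libraries, and the call of Ltbp3 was lost without T replicate 2. The promoters of BC004004, Gipr and Lemd2 did not pass the test (adjusted p = 0.549, 0.379 and 0.583).

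Among the losses against T cells, Rsu1, whose protein acts at integrin adhesions, had 0, 0.741 and 2.55 CPM in its 3' UTR peak (chr2:13224522-13225022) in the lymphomas, against 25.6, 18.2 and 21.5 CPM in T cells. The member fell by 4.62 ± 0.67 on the log2 scale (adjusted p = 9.43e-06), the promoter with its CCAAT box by 0.94, and the difference was -3.73 ± 0.65 (adjusted p = 0.000970). Tmc3, of a family of transmembrane channel genes, had 0, 0.980 and 3.44 CPM in its exonic peak in the lymphomas, against 23.4, 44.1 and 32.2 CPM in T cells (-4.44 ± 0.59, adjusted p = 2.51e-06). NKT cells had 0, 0 and 1.23 CPM at Tmc3. Poli, which encodes the translesion DNA polymerase iota, had 0, 2.62 and 6.36 CPM in its 3' UTR peak in the lymphomas, against 27.2, 31.5 and 31.4 CPM in NKT and 35.1, 36.3 and 41.6 CPM in T cells. It was below both without overlap (-3.35 ± 0.46, adjusted p = 1.97e-06 against NKT, and -3.68 ± 0.47, adjusted p = 1.35e-06 against T cells).

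Against NK cells, the named gains were at members without a count in any NK library, the shallowest group. Pik3c2b, a class II phosphoinositide kinase gene, had 304 counts in its exonic peak in the lymphomas, at least 6.37-fold higher. Pkp4, which encodes a plakophilin of cell junctions, was at least 5.35-fold higher in its 3' UTR peak, Gldc, the glycine decarboxylase gene, at least 5.30-fold, Fer1l4 at least 5.18-fold and Map2k5, the gene of the kinase MEK5, at least 4.99-fold. The calls of Pkp4 and Map2k5 were lost without any 1 of the 3 NK libraries and that of Gldc without NK replicate 3. D1Ertd622e had 0, 7.78 and 22.3 CPM in its 3' UTR peak in the lymphomas, against 45.6, 93.1 and 117 in NK, 4.80, 5.91 and 5.20 in NKT and 30.9, 16.4 and 7.47 CPM in T libraries. NK cells stood above all lymphomas there (-3.55 ± 0.48, adjusted p = 1.05e-05), and the promoter fell less (-1.17), with a difference of -2.44 ± 0.60 (adjusted p = 0.0408). Aqr, which encodes a helicase of the spliceosome (-3.35 ± 0.56, adjusted p = 0.000236), and Arl6ip1, a gene for a protein that shapes the endoplasmic reticulum (-2.80 ± 0.53, adjusted p = 0.000811), were also below all NK libraries in every lymphoma. An exonic peak of Farp1 other than the one above gave -2.92 ± 0.53 (adjusted p = 0.000475), with 1.96, 6.54 and 12.1 CPM in the lymphomas against 2.07, 86.8 and 60.2 CPM in NK cells, so that 1 NK library lay among the lymphomas.

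Gene lists were described by their counts of members, beside the shares of all peaks given above. Of the 8 members in p53 targets and apoptosis genes, 4 were lower and none higher in mPTCL than in NKT cells, with a median log2 fold change of -1.16. Over all peaks 19.4% were lower with a median of 0.27, and on the 11 chromosomes 24.5% with a median of -0.05. Against T cells, 4 of the 8 members were lower and none higher with a median of -1.11. Over all peaks 11.4% were lower, and on the 11 chromosomes 14.2%. Tnfrsf10b, the death receptor for the ligand TRAIL and a p53 target, had 0.934, 9.56 and 22 CPM in its exonic peak (chr14:69774641-69775141) in the lymphomas, against 45.6, 0 and 15.8 in NK, 92.9, 108 and 91.6 in NKT and 42.6, 44.1 and 42.5 CPM in T libraries. All lymphomas were below all NKT and T libraries and overlapped the NK libraries. The member fell by 3.22 ± 0.39 on the log2 scale against NKT cells (adjusted p = 3.77e-07) and by 2.04 ± 0.42 against T cells (adjusted p = 0.000825), while the promoter peak 6773 bp away did not pass the test (-0.70, adjusted p = 0.283, and 0.45, adjusted p = 0.621). The differences from the promoter were -2.74 ± 0.63 (adjusted p = 0.00186) and -2.62 ± 0.70 (adjusted p = 0.0162). The other Tnfrsf10b member gave -3.03 and -1.69, and it shares the locus. Fas, the receptor gene of the death ligand FasL (-1.30), and Aen, a p53-induced nuclease gene (-1.26), fell against NKT cells, and Btg2, an antiproliferative p53 target (-1.36), and Bcl2l11, which encodes the death protein BIM (-1.94), against T cells. With RLE size factors or library totals the counts against NKT cells were 2 lower and none higher, and against T cells 3 lower and 1 higher. Against NK cells the 1 call was a 3' UTR peak of Bcl2l1, which encodes the death inhibitor BCL-XL (-2.72).

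In the cell-cycle and growth list of 12 members, 3 rose and 2 fell against NKT cells, and none rose and 4 fell against T cells. The 4 were a Notch1 peak (-1.12), 2 Cdkn1b peaks (-1.57 and -2.21) and a Rbl2 peak (-0.90), and with RLE size factors 1 of them was called. Cdkn1b, the gene of the cyclin-dependent kinase inhibitor p27, had 8.75, 11.7 and 20.9 CPM in its exonic peak (chr6:134921243-134921743) in the lymphomas, against 8.29, 8.47 and 14.3 in NK, 37.6, 41.7 and 36.0 in NKT and 42.6, 40.6 and 27.6 CPM in T libraries. The lymphomas were below all NKT and T libraries and overlapped the NK libraries, at -1.64 ± 0.30 (adjusted p = 0.000113) and -1.57 ± 0.32 (adjusted p = 0.000626). Its promoter peaks, of which the strongest lies 448 bp away and holds the GC box printed above, fell as well (-1.10 and -0.82), and the difference did not pass the test (adjusted p = 0.281 and 0.233). Rbl2, which encodes the pocket protein p130, fell by 1.42 on the log2 scale against NKT cells. Mycn, a MYC-family oncogene (1.81 ± 0.73, adjusted p = 0.0452), Notch3, a Notch receptor gene (1.70), and Ccnd1, the cyclin D1 gene (1.15), rose. The groups overlapped at the Mycn 3' UTR peak, with 0, 5.18 and 12.8 CPM in the lymphomas against 3.20, 1.82 and 1.23 CPM in NKT cells, and its call was lost in 5 of 19 alternatives.

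Of 17 members in lymphoid transcription factor genes, 5 were higher and 2 lower in mPTCL than in NKT cells, and against T cells none was higher and 1 lower. Batf, an AP-1 family factor of activated lymphocytes (2.72), Eomes, a T-box factor of NK and memory T cells (2.09), Bhlhe40, a basic helix-loop-helix repressor (1.33), and the 2 called members of Runx2, a RUNX-family factor (3.25 and 3.05), were higher. Satb1, a chromatin organiser of T-cell development, had 1.27, 2.45 and 5.57 CPM in its exonic peak in the lymphomas, against 8.81, 11.4 and 7.40 in NKT and 10.6, 13.0 and 13.5 CPM in T cells. It was lower without overlap in both comparisons (-1.73 ± 0.53, adjusted p = 0.00972, and -2.16 ± 0.54, adjusted p = 0.00470). Under cyclic loess the list gave 1 higher and 3 lower calls against NKT cells. The call of the named Runx2 peak was lost without NKT replicate 2.

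Among 11 members of the T-cell receptor complex and signalling list, 3 were lower and none higher than in NKT cells. They were Dpp4, Plcg1, the phospholipase gene of receptor signalling (-2.11), and 1 member of Cd3d, a CD3 chain gene (-1.48). Against T cells, Dpp4 was the only call. Of 5 members in NK receptor genes, Klrg1, an inhibitory receptor of effector cells, rose against NKT cells (4.52 ± 0.92, adjusted p = 0.000355) and Slamf6, a SLAM-family receptor, fell (-2.56 ± 0.45, adjusted p = 5.59e-05). The exonic peak of Slamf6 had 2.18, 5.57 and 17.7 CPM in the lymphomas, against 33.6, 47.3 and 32.3 CPM in NKT cells, its promoter fell by a similar amount (-2.16), and the difference was not called (adjusted p = 0.585). Its lower level against T cells (-1.51, adjusted p = 0.0279) was lost in 11 of 21 alternatives. Of 4 members in cytotoxic effector and cytokine genes, Il10, which encodes an anti-inflammatory cytokine, rose against NKT cells (2.48 ± 0.79, adjusted p = 0.0131), a call lost without NKT replicate 2.

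Of 11 members in cytokine and chemokine receptor genes, 1 was higher and 2 lower than in NKT cells, and with RLE size factors 2 were higher and none lower. Il12rb1, a subunit gene of the IL-12 and IL-23 receptors, rose against NKT cells (1.24 ± 0.47, adjusted p = 0.0349), a call lost without NKT replicate 1 or 3. The 2 called Il17ra members, of the IL-17 receptor gene, fell (-1.22 and -1.32), and the call of the named one was lost in 11 of 20 alternatives. Of 9 members in homing and adhesion genes, Itgax, which encodes the integrin CD11c, rose against NKT cells (2.75 ± 0.60, adjusted p = 0.000662), with 5.30, 12.4 and 24.3 CPM in the lymphomas against 1.60, 0.910 and 2.47 CPM in NKT cells and no overlap. Cd69, an early activation and retention marker, was lower against NKT cells (-0.99 ± 0.32, adjusted p = 0.0133) and T cells (-1.03 ± 0.33, adjusted p = 0.0234), calls that were lost in 12 of 21 alternatives each. Of 6 members in chromatin modifier genes, Kdm5b, a histone demethylase gene, was lower against NKT cells (-1.17 ± 0.40, adjusted p = 0.0180), a call lost in 10 of 20 alternatives. Chd1, a chromatin remodeller (-2.59), and Tet3, a methylcytosine dioxygenase (-2.53), were lower against T cells.

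Of 19 members in collagen and matrix genes, 8 were higher and none lower than in NKT cells, with a median of 1.09, and none passed under cyclic loess. The called genes included the laminin genes Lama5 (3.56 and 2.89), Lamb3 (1.34) and Lamc3 (1.42), the collagen genes Col4a3 (2.52) and Col5a1 (2.40), and Itih1, of the inter-alpha-trypsin inhibitor family (3.63). The named Lama5 peak had 1.87, 5.10 and 19.5 CPM in the lymphomas, against 1.60, 0.152 and 0.685 CPM in NKT cells, and its call was lost without NKT replicate 2. Of 19 members in developmental patterning factor genes, 6 were higher and 1 lower with a median of 0.93, and under cyclic loess 2 were higher and 1 lower. Lhx6, a LIM homeobox gene, had 5.37, 16.4 and 29.9 CPM in the lymphomas, against 1.60, 2.12 and 3.97 CPM in NKT cells (2.68 ± 0.59, adjusted p = 0.000710). Sox12 (2.18), Sox8 (1.84), Nkx2-2 (1.56), Sox13 (1.41) and Lhx9 (1.37), all genes of homeobox or SOX factors, were the others, and the transcript Sox5it was lower (-1.79 ± 0.34, adjusted p = 0.000140). Of 25 members in Krueppel-type zinc finger genes, 5 were higher and 5 lower, with 7 and 1 under RLE size factors and none and 1 under cyclic loess. Among the calls as reported were Zfp503 (2.40 ± 0.62, adjusted p = 0.00321) and Zfp870 (-1.94 ± 0.39, adjusted p = 0.000266). Against T cells, Zfp598, whose protein acts on stalled ribosomes, had 222 counts in the lymphomas and 2 in T cells, a ratio of 18.7 (5.10 to 155), and Zfp51 was lower (-2.31 ± 0.51, adjusted p = 0.00161).

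Markers of B cells and of cells other than lymphocytes were looked at as well. Spi1, which encodes the myeloid and B-cell factor PU.1, had 8.48, 16.1 and 31.3 CPM in its 3' UTR peak (chr2:91115117-91115617) in the lymphomas, against 12.4, 4.23 and 9.51 in NK, 1.60, 0.758 and 2.74 in NKT and 0, 1.73 and 1.87 CPM in T libraries. All lymphomas were above all NKT and T libraries at this peak and overlapped the NK libraries, at 3.32 ± 0.58 (adjusted p = 6.24e-05) and 3.66 ± 0.69 (adjusted p = 0.000279). Of the 2 members in the myeloid list, 1 was called against NKT and T cells, with medians of 1.41 and 1.64. Over all 5 Spi1 peaks, CPM summed to 33.4 to 90.4 in mPTCL and 72.9 to 97.4 in NK libraries. They summed to 49.7 to 61.4 in NKT and 40.5 to 47.6 in T libraries, so the lymphomas overlapped every normal group. Over all peaks of the 3 myeloid markers with a peak (Cd68, Clec4f, Spi1), of 6 listed, CPM summed to 79.7 to 121 in mPTCL, 88.7 to 129 in NK, 57.7 to 70.5 in NKT and 49.0 to 63.1 in T libraries, and Csf1r, Lyz2 and Adgre1 had no peak. Blk, a B-cell kinase gene, was higher in its 3' UTR peak than in T cells (2.20 ± 0.67, adjusted p = 0.0194), a call lost without T replicate 1 or 3. The 3 B-cell markers with a peak (Pax5, Cd79b, Blk), of 6 listed, summed to 52.8 to 139 CPM in mPTCL, 55.0 to 112 in NK, 16 to 34.0 in NKT and 29.8 to 55.3 in T libraries, and Cd79a and Ms4a1 were among those without one. Stab1, a scavenger receptor of sinusoidal endothelium (3.69), and Vwf, which encodes von Willebrand factor (1.55 ± 0.59, adjusted p = 0.0322), were higher than in NKT cells, and the call of Vwf was lost without NKT replicate 2 or 3. Stab1 was lower than in NK cells (-2.27). The 3 endothelial markers with a peak (Cdh5, Pecam1, Stab2), of 5 listed, summed to 57.0 to 195 CPM in mPTCL, 88.9 to 192 in NK, 98.5 to 116 in NKT and 124.5 to 177 in T libraries, and Kdr and Lyve1 had no peak. Stab2 alone had 7.47 to 66.2 CPM in mPTCL, 29.6 to 141 in NK, 2.43 to 8.81 in NKT and 4.32 to 6.39 in T libraries. At Pecam1 and Cdh5 the lymphomas overlapped every normal group. No hepatocyte marker was a member, and the 2 with a peak (Apob, G6pc), of 6 listed, summed to 22.3 to 79.9 CPM in mPTCL, 16.9 to 63.4 in NK, 4.80 to 9.70 in NKT and 3.19 to 11.7 in T libraries, while Alb, Apoa1, Ttr and Serpina1a had no peak. The part of other cells in these results was not tested. None of 5 members in erythroid genes passed in the comparisons of mPTCL with NKT, T or NK cells, and with RLE size factors 1 was higher than in NKT cells.

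The normal cells were compared with each other in the same fit. Between NKT and T cells, 73 members were higher and 50 lower in NKT cells (2.63% and 1.80%, beside 3.5% and 1.75% of all peaks). Ddx39, which encodes an RNA helicase of messenger export, had 58.5, 39.3 and 41.4 CPM in its 3' UTR peak in NKT cells, against 2.13, 1.73 and 0.934 CPM in T cells (4.93 ± 0.71, adjusted p = 4.54e-05). Slc27a1, a fatty acid transporter gene, had 33.6, 42.0 and 38.6 CPM in its exonic peak in NKT cells, against 2.13, 1.73 and 1.87 CPM in T cells (4.30 ± 0.75, adjusted p = 0.000426). Neither promoter was called (adjusted p = 0.610 and 0.495), and both differences from the promoter were (4.57 ± 0.77, adjusted p = 0.00117, and 3.72 ± 0.91, adjusted p = 0.0178). Tmc3 was lower in NKT cells (-5.81 ± 0.94, adjusted p = 0.000182), as were Tmem141 (-4.49 ± 0.88, adjusted p = 0.00139) and Aqr (-4.41 ± 0.77, adjusted p = 0.000413), and BC004004 was at least 5.87-fold higher, a call lost without any 1 T library and without NKT replicate 1 or 3. The Aqr exonic peak had 0, 1.21 and 1.92 CPM in NKT cells, against 27.7, 39.8 and 20.6 CPM in T cells. With RLE size factors the counts were 54 higher and 65 lower, with DESeq2 80 and 152, with the smaller table instead 16 and 39. Without T replicate 1 they were 29 and 31. Without NKT replicate 2 the counts were 31 higher and 8 lower. Relative to the promoter, 28 members were higher and 31 lower, beside 1.65% and 1.94% of all non-promoter peaks. That split was 35 and 1 among members with a mean of at least 20 counts, and 40 and 82 with limma on log2 ratios.

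Between NK and T cells, 55 members were higher and 64 lower in NK cells (1.98% and 2.31%, beside 2.03% and 2.75%). Pou2af1, a B-cell coactivator gene, was at least 8.98-fold lower in its 3' UTR peak in NK cells, with no count in the 3 NK libraries against 14.9, 15.6 and 18.7 CPM in T cells. Dtx4, a Deltex-family ubiquitin ligase gene, was at least 7.86-fold lower and Pkp4 at least 7.11-fold lower. The call of Pkp4 was lost without any 1 NK library and without T replicate 1 or 2, and that of Pou2af1 without NK replicate 3. Among the gains, Tagln2, which encodes an actin-binding transgelin, had 23 counts in NK cells and 2 in T cells, a ratio of 30.7 (7.59 to 269), and Spire2, an actin nucleator gene, 18 and 2, a ratio of 24.0 (5.76 to 214). The V segment Ighv1-14 had 44 and 3 counts, a ratio of 39.2 (12.6 to 197), and its NK libraries, at 0, 21.2 and 53.9 CPM, overlapped the T libraries. The call of Tagln2 was lost without T replicate 2, T replicate 3 or NK replicate 3, that of Ighv1-14 without NK replicate 3 and that of Spire2 without NK replicate 2. With RLE size factors the counts were 89 higher and 30 lower, with DESeq2 144 and 45, with a mean of at least 20 counts 53 and 22 and with the smaller table instead 26 and 12. The balance also turned without T replicate 1 (25 and 20) or 2 (29 and 23). Relative to the promoter, 48 members were higher and 7 lower, beside 2.48% and 0.653%.

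Between NK and NKT cells, 201 members were higher and 218 lower in NK cells (7.25% and 7.86%, beside 6.81% and 10.3%). Tmtc1 was higher in NK cells (7.43 ± 0.88, adjusted p = 3.17e-06), its promoter was not called (1.04, adjusted p = 0.465), and the difference was 6.55 ± 1.23 (adjusted p = 0.00113). Tada1, a subunit gene of the SAGA coactivator, had 16.6, 29.6 and 31.7 CPM in its exonic peak in NK cells, against 0, 0.303 and 0.685 CPM in NKT cells (5.75 ± 1.06, adjusted p = 0.000574), with the promoter at -0.08. Dtx4 was at least 16.2-fold lower in NK cells, Pkp4 at least 10.2-fold and Ccdc136 at least 4.85-fold. The Dtx4 exonic peak had 24.0, 37.6 and 25.6 CPM in NKT cells and no count in the 3 NK libraries, and its promoter was lower too (-2.21, adjusted p = 0.000920). A call at the Farp1 peak with 2 counts in NKT cells rested on NK replicate 3 alone, at 34.9 CPM, with no count in the 2 other NK libraries, and its log2 fold change was -1.83 without that library (adjusted p = 0.799). With RLE size factors the counts were 317 higher and 84 lower, with DESeq2 493 and 114, with a mean of at least 20 counts 95 and 54 and with the smaller table instead 52 and 19. The balance also turned without NKT replicate 1 (155 and 119), NK replicate 1 (232 and 194) or NK replicate 3 (128 and 108). Relative to the promoter, 157 members were higher and 37 lower in NK cells, beside 9.36% and 2.53%, and among members with a mean of at least 20 counts 33 and 30.

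A cluster of 39 members at Mroh2a and Hjurp on chromosome 1 held 36 of the 201 gains of NK over NKT cells. It was chosen after its values were seen, so the values below describe it and do not test it. The block spans chr1:88228235-88276516 and holds 63 peaks, of which 29 are members of Mroh2a and 10 of Hjurp, whose protein places the centromeric histone CENP-A, and 24 have other classes. These 2 genes held more members than any other, the next being Fosb, Unc13a and Vamp1 with 6 each. The mean per member was 5.57 to 18.0 CPM in mPTCL, 18.9, 29 and 40.6 CPM in NK, 5.73, 2.75 and 5.45 CPM in NKT and 12.8, 15.9 and 8.38 CPM in T libraries. The NK libraries were above all others and the lymphomas overlapped the NKT and T libraries. The 24 peaks of other classes had means of 21.6, 24.5 and 36.4 CPM in NK and 3.74, 2.30 and 4.61 CPM in NKT libraries. Their means were 4.55 to 18.1 CPM in mPTCL and 9.41, 13.7 and 6.97 CPM in T libraries. By group means of CPM, NKT cells were lowest at 39 of 39 members and NK cells highest at 38 of 39.

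Within that block, 36 members were higher in NK than in NKT cells (median 2.68), 27 were higher in mPTCL than in NKT cells (1.65), 17 were lower in mPTCL than in NK cells (-1.21), 6 were higher in NK than in T cells and 5 lower in NKT than in T cells. No block member was called between mPTCL and T cells, where the median was 0.12 and none had an unadjusted p below 0.05. Without the block, 165 members were higher and 218 lower in NK than in NKT cells, 551 and 389 in mPTCL against NKT cells and 119 and 59 in mPTCL against NK cells. The neighbouring members lie close together and share a locus, so they are not independent sites.

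**Figure D5:**
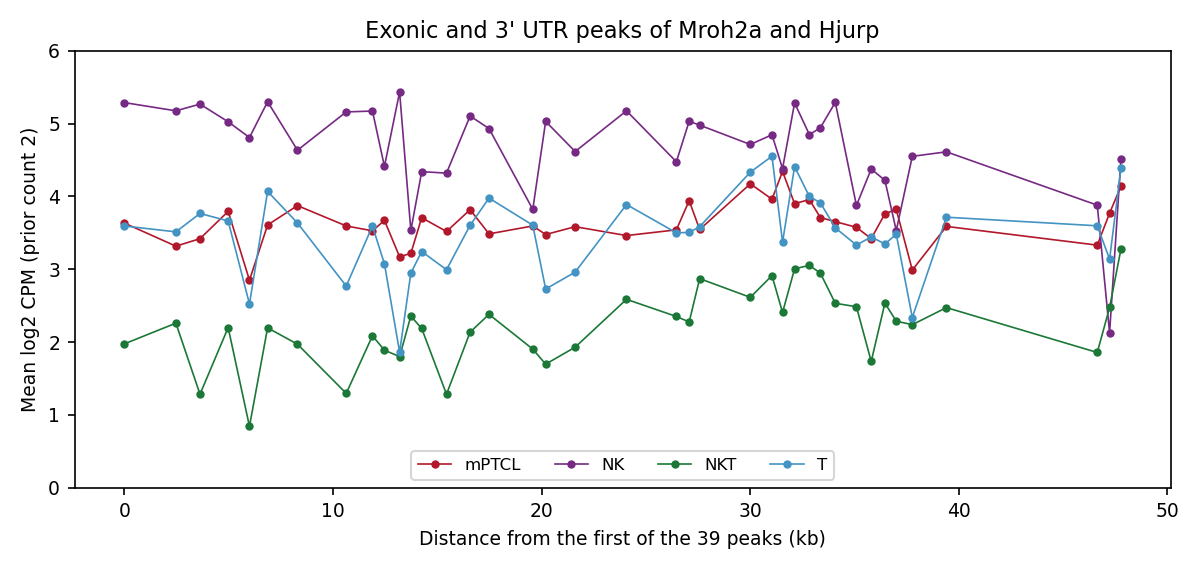
Mean log2 CPM of each group at the 39 exonic and 3' UTR peaks of Mroh2a and Hjurp, by distance from the first of them in kb. By group means of CPM, NKT cells are lowest at all 39 peaks and NK cells highest at 38. By those means, mPTCL and T cells lie between them at most peaks. The order of the log2 means drawn was not counted.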

How the data were processed

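ATAC-seq was measured in 18 libraries (9 mPTCL, 3 NK, 3 NKT, 3 T). The authors deposited whole-number counts per peak and library, not normalized, for a larger set of peaks and for a smaller one of 27727 peaks. They also deposited log2 CPM values, TMM-scaled per the file names, which were not used here. Per the submitters' processing notes, MACS2 2.1.2, bedtools and edgeR 3.24.3 were used with the build mm10. The aligner, the peak selection and whether starts count from 0 or 1 are not stated in the sources available.

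Counts were fitted with edgeR 4.0.16 (R 4.3.3), with TMM scaling, filterByExpr and a quasi-likelihood test over all 18 libraries and 4 groups. The filter kept 61220 peaks, the common biological coefficient of variation was 0.431 and there were 14 residual degrees of freedom. P-values were adjusted by Benjamini-Hochberg over all peaks at a threshold of 0.05. A CPM is a count over the effective library size, and log2 CPM uses a prior of 2 counts. Differences from the promoter came from a fit with library and region-by-group terms over 24956 non-promoter peaks whose gene has a promoter peak that does not overlap them (coefficient 0.336). A group without counts was given a floor of 3 counts, and ratios with 1 to 3 counts carry exact 95% binomial intervals, which cover counting error only.

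Named members had a mean of at least 10 counts. For each comparison they were those with the largest called changes in either direction over all members, per gene list and relative to the promoter, plus the 5 strongest members. The other called genes of a list were named after their values were seen. The members and gene lists were chosen with earlier results of these data known. The lowest chi-square per degree of freedom between replicates of a group was 2.24, so no library was counted as a duplicate. Replicate numbers did not pair the normal libraries, with correlations of same-numbered deviations from -0.037 to 0.047. Alternatives used limma 3.58.1 and DESeq2 1.42.0, other scalings and filters, the smaller table and each library left out. The procedure was tested on simulated data.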

Additional observations from a re-analysis of the deposited data

Results flagged for a closer look

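In 3 of 72 named peaks tested, 1 lymphoma stood apart from the 8 others by more than the 95% limit of Dixon's test, a rule by which chance flags about 1 group in 20. The exonic peak of Slc27a1 had a log2 CPM of -0.36 in mPTCL 8, and the nearest lymphoma had 2.25. The 3' UTR peak of Mycn had -0.36 in mPTCL 8, where the nearest had 1.90. Both peaks had 0 CPM in mPTCL 8, and -0.36 is what the prior count gives to a peak without counts. This library was the shallowest lymphoma, with 670358 counts in peaks. The exonic peak of Atic had 2.25 in mPTCL 3, where the nearest had 3.34.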

How the results depend on the processing

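Counts of called members moved with the filter, the scaling and the libraries, and the cause was not tested. With a mean of at least 20 counts they were 493 (mPTCL against NKT, 967 as reported), 245 (against T, 377), 76 (NKT against T, 123), 75 (NK against T, 119) and 149 (NK against NKT, 419), and differences from the promoter 269, 121, 36 (NKT against T) and 63 (NK against NKT). Cyclic loess gave 272 against NKT, 453 against NK (195 as reported), 44 for NKT against T and 274 for NK against T. DESeq2 gave 641 against T, 232 for NKT against T and 189 for NK against T. The smaller table, with 1096 members, gave 159 (54 higher, 105 lower), 90 (8 and 82) and 79 (13 and 66) for mPTCL against NKT, T and NK, and 55, 38 and 71 for NKT against T, NK against T and NK against NKT. Fitting 2 groups only gave 441 for NKT against T and 183 for NK against NKT. With limma on log2 ratios, differences from the promoter numbered 115 for mPTCL against NK, 122 for NKT against T, 216 for NK against T and 573 for NK against NKT.

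Leaving out 1 library gave 462 (without NKT replicate 2) to 1080 calls (without mPTCL replicate 8) against NKT, 193 (without T replicate 1) to 424 against T and 120 (without NK replicate 2) to 240 against NK. It gave 39 (without NKT replicate 2) to 70 for NKT against T, 45 (without T replicate 1) to 163 (without NK replicate 1) for NK against T and 187 (without NKT replicate 2) to 426 for NK against NKT. Differences from the promoter ranged from 267 to 630, 65 to 205 and 6 to 30 for mPTCL against NKT, T and NK, and from 13 to 35, 18 to 83 and 81 to 192 for NKT against T, NK against T and NK against NKT.

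The replicate numbers did not pair the libraries. In the normal libraries alone, the fit with a replicate block gave 162 calls for NKT against T (268 without the block), 112 for NK against T (170) and 223 for NK against NKT (319).

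Of all peak counts, members held a median of 3.12% in mPTCL, 3.10% in NK, 2.92% in NKT and 2.83% in T libraries. Of all counts of the smaller table, they held 2.46%, 2.35%, 2.45% and 2.37% in the same order. Of the counts on the 11 chromosomes, they held 6.62%, 5.60%, 5.24% and 5.16%, a measure not computed in the smaller table. Without the Mroh2a and Hjurp peaks, members held 2.97% of all counts in NK cells.

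Of 92 named results, 53 kept their direction and side of the threshold in every alternative that gave a value, and 39 did not in at least 1. The reversal was Farp1 in NK against NKT cells, at -1.83 without NK replicate 3 and 6.81 without NK replicate 1. Cyclic loess alone ended the calls of Klrg1 and Zfp503 against NKT cells and of BC004004 and Gipr against T cells. Low depth in NK cells limits every statement on sites without counts there.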

Other observations

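The exonic peak of Clec11a (chr7:44304852-44305352), a gene for a secreted growth factor of stem cells, was chosen after its values were seen. It had 84.8, 2.55, 1.59, 78.2, 121, 150, 3.52, 79.4 and 125.15 CPM in mPTCL 1 to 9, from 173, 4, 6, 201, 421, 687, 19, 57 and 134 counts. It had 120, 288 and 184 CPM in NK, 157, 150 and 158 in NKT and 121, 96.9 and 113 CPM in T libraries. The group comparison of mPTCL with NKT cells did not pass the test (-1.12, adjusted p = 0.113 by edgeR). Each peak's lymphomas were ordered by level, and gaps between neighbours with at least 2 lymphomas on each side were measured. The widest was 4.2 on the log2 scale at this peak, rank 1 of 61220 peaks. At the adjacent Clec11a peak (chr7:44305394-44305894) it was 3.12, rank 17, with the same 3 libraries on the low side. Such a gap over 3 was found at 2 of 2773 members and 28 of 61220 peaks.

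Segments of antigen receptor genes were also among the members. The 21 members in immunoglobulin heavy-chain V segments summed to 132 to 352 CPM in mPTCL, 89.1 to 372 in NK, 188 to 270 in NKT and 153 to 177 in T libraries. The 4 members in T-cell receptor beta V segments summed to 14.7 to 33.5, 21.2 to 29, 12.6 to 16 and 17.3 to 33.2 CPM in the same order. The lymphomas overlapped each normal group in both. The NKT libraries lay above the T libraries in the heavy-chain V segments and below the NK and T libraries in the beta V segments.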
